A study of Mus musculus with 16 samples.

Results

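The aldehyde dehydrogenase family described here comprised 10 genes that were measured in mouse liver on two-colour whole-genome arrays. Its members were chosen by the gene name that the scanner files give each probe. The names matched 13 of the 41174 probes other than controls. All 13 probes were kept by the filter on dim probes, so all 10 genes were among the 16672 genes tested.

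Aldehyde dehydrogenases oxidise aldehydes to carboxylic acids with NAD+ or NADP+ as the acceptor of electrons. The liver carries a large part of the body's activity, which clears aldehydes from alcohol, from peroxidised lipids and from the breakdown of amino acids, choline and fatty alcohols, and which turns retinaldehyde into retinoic acid. Nrf2, the product of the gene Nfe2l2, is a transcription factor that induces detoxifying enzymes, and loss of autophagy through Atg7 in mouse liver is known to stabilise it through p62 and Keap1.

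The compared livers came from Nrf2-/- mice (called Nrf2 KO), from Atg7F/F:Mx1-Cre mice (Atg7 cKO), from Atg7F/F:Mx1-Cre:Nrf2-/- mice (double knockout, DKO) and from wild type mice (WT). Per the labels, pIpC was given at 8 weeks of age to knockout and control mice alike, and liver RNA was purified 4 weeks later. Cre under the Mx1 promoter is switched on by pIpC through interferon and acts in other cells of the liver as well as in hepatocytes, so the deletion was not specific to one cell type. The 16 arrays formed 8 dye-swapped experiments, 2 per comparison: 1 and 4 set Nrf2 KO against WT, 2 and 5 Atg7 cKO against WT, 3 and 6 DKO against WT, and 7 and 8 DKO directly against Atg7 cKO. The labels number experiments but not animals, so the p-values measure the spread between experiments, which may be technical in part.

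Median spot signals of the channels lay between 41.8 and 55.6 units over a median local background of 34.5 to 36.5, and 43.4% to 57.2% of spots were well above background. Nfe2l2 itself lay at a log2 ratio of -3.88 ± 0.13 in Nrf2 KO and -3.71 ± 0.56 in DKO livers relative to WT (SD, n = 2 each). The Atg7 probe lay at -0.81 ± 0.02 in Atg7 cKO livers. The hepatocyte markers Alb and Cps1 were at -1.41 and -2.12 in Atg7 cKO livers. Experiments 1 to 3 differed from experiments 4 to 6 in genes tied to sex: Xist had a log2 signal of 5.757 to 5.800 in the WT channels of experiments 1 to 3 and of 11.15 to 11.21 in those of experiments 4 to 6, and the Y-linked Ddx3y ran the other way, with 7.65 to 7.78 and 5.78 to 5.81. The knockout channels showed the same difference, so each comparison with WT held 1 experiment of either set. The file headers place these 6 experiments on 3 slides, with the pairs 1 and 2, 3 and 4, and 5 and 6 together.

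The sequences of 5 probes show what was hybridised for the members on which the comparisons turn. Aldh1a1 and Aldh1a7 are neighbours on chromosome 19 and close relatives in sequence, and how much signal each probe takes from the other gene's transcript was not tested. For Aldh1a1, Aldh1a7 and Aldh3a2 the first 30 of 60 bases are given, and for Aldh2 and Aldh1l1 the whole probe, which spans an exon junction and has an open reading frame.
Aldh1a1, probe A_51_P334942, chr19:20717764-20717793 of mm9, plus strand: gactagttgtgacttaagctctgtccctca
Aldh1a7, probe A_51_P383399, chr19:20767583-20767612 of mm9, minus strand: ttccttgaactatgtaccatgcatgataac
Aldh3a2, probe A_51_P464175, chr11:61058257-61058290 of mm9 as the file gives it, minus strand: agaacgaatcattggccggttatagcaata
Aldh2, probe A_52_P116134, chr5:122022137-122022690 of mm9, minus strand: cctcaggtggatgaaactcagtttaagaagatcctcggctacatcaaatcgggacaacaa
Aldh1l1, probe A_51_P504546, chr6:90548335-90548895 of mm9, plus strand: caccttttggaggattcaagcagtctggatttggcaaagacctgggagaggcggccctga
All positions are those of the scanner files. For Aldh3a2 the span given is 34 bases for a probe of 60, so the place of the 30 printed bases is not known from it. Levels below are log2 normalised signals of a probe and were compared within a probe, never between probes.

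Across the comparisons the 10 genes fell into unlike patterns. In Nrf2 KO livers none was called against WT, where 0.012% of all tested genes were. In Atg7 cKO livers 2 were higher and 6 lower than in WT, where 23.2% and 16.2% of all were. In DKO livers 9 were lower and none higher, where 15.9% and 21.2% of all were. When DKO was set directly against Atg7 cKO livers, 4 were lower, where 8.07% of all were: Aldh1a1, Aldh1a7, Aldh3a2 and Aldh7a1. A gene was called where limma's adjusted p over all 16672 genes lay below 0.05, and ratios are given as knockout over WT, or DKO over Atg7 cKO, on the log2 scale. The comparisons of a fit shared an estimate of the spread of each gene. A p-value therefore does not rest on its own comparison's experiments alone, while an SD does.

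**Figure D1:**
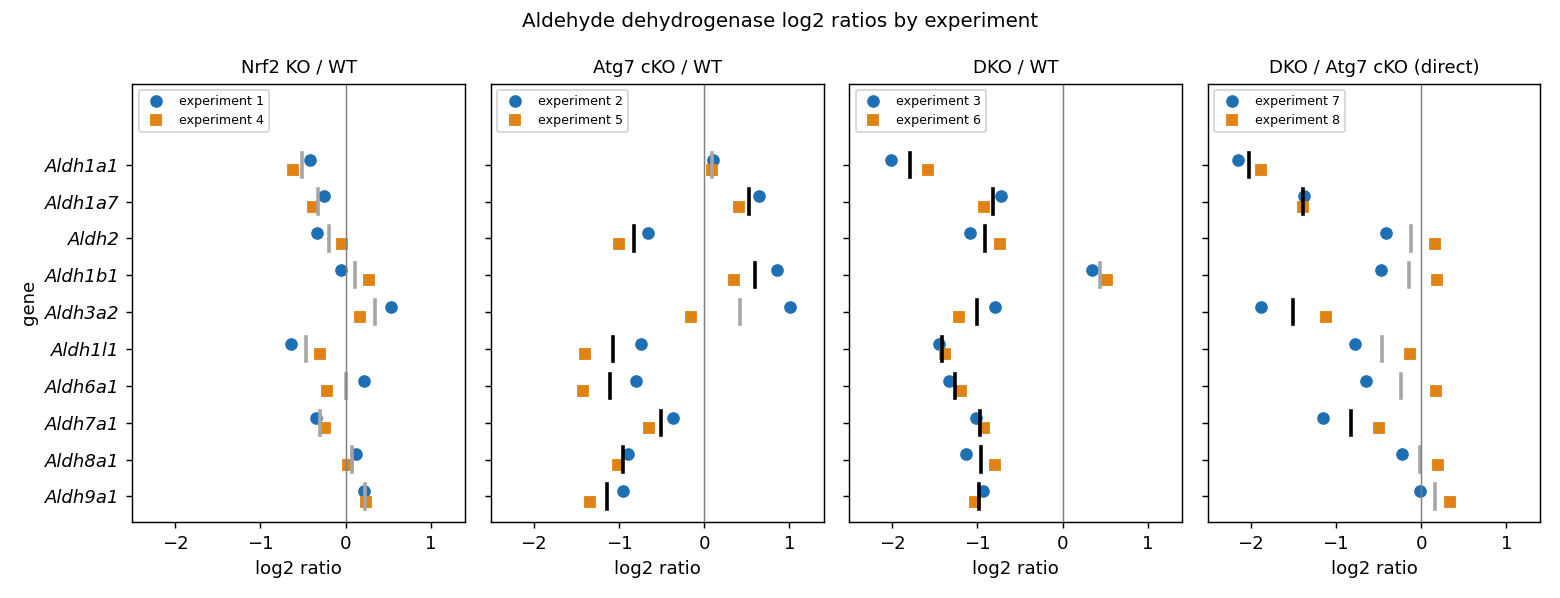
Log2 ratios (x axes) of the 10 genes (rows) in the 4 comparisons (panels). Circles and squares are the 2 experiments of a comparison, each the mean of its dye swap, and vertical bars are their means, black where called and grey where not. Ratios to WT are from the scanner files, and those of DKO over Atg7 cKO from the deposited value table, which was processed otherwise. Aldh1a1 lay at -2.01 and -1.58 in DKO over WT and at 0.10 and 0.09 in Atg7 cKO over WT. In DKO over Atg7 cKO it lay at -2.15 and -1.87. In the value table its ratios to WT were -1.82 and -1.50 in DKO and 0.32 and 0.19 in Atg7 cKO livers.

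Aldh1a1 is the main cytosolic retinaldehyde dehydrogenase of adult liver and also oxidises aldehydes from lipid peroxidation. Its log2 signal was 12.20 and 12.31 in DKO livers, against 14.20 and 13.89 in the WT channels of the same experiments. The DKO channels of both experiments lay below every other channel of the 6 experiments, and the Nrf2 KO channels below every WT channel. The WT channels of experiments 3 and 6 were also the highest WT channels, with 13.48 to 13.72 in the others, which adds to the ratios below. The log2 ratios were -2.01 and -1.58 in experiments 3 and 6, with a mean of -1.79 ± 0.30 (SD, n = 2; limma adjusted p = 7.98e-04), a level 3.47 times lower in DKO than in WT livers. In Atg7 cKO livers the signal was 13.58 and 13.68, against 13.48 and 13.59 in WT. The mean ratio there was 0.10 ± 0.01 and was not called (adjusted p = 0.537, 95% interval -0.19 to 0.38). In Nrf2 KO livers the signal was 13.20 and 13.10, against 13.61 and 13.72 in WT. Both ratios, -0.42 and -0.62, were below 0, and their mean of -0.52 ± 0.14 had an unadjusted p of 0.00519 in limma's fit but was not called over all genes (adjusted p = 0.931).

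Aldh1a1 was among the members whose ratios depended most on the dye. In all 8 experiments the array with the knockout RNA (DKO in experiments 7 and 8) in Cy5 gave the higher ratio. In experiment 5 the Atg7 cKO over WT ratio was 0.75 with Atg7 cKO RNA in Cy5 and -0.58 with it in Cy3, and in experiment 2 the same ratios were 0.61 and -0.40. The small mean in Atg7 cKO livers is thus the average of orientations with opposite signs. For Aldh7a1, the lysine pathway enzyme, the array with that RNA in Cy5 gave the lower ratio in all 8 experiments, by up to 0.92 in the scanner files and 1.30 in the value table. All 8 arrays with DKO RNA gave Aldh1a1 ratios of -1.04 or below.

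Aldh1a7 is a close relative of Aldh1a1 found in rodents that oxidises small aldehydes and has little activity on retinaldehyde. Its log2 signal was 13.02 and 12.83 in Atg7 cKO livers, against 12.38 and 12.42 in WT, and 11.48 in both DKO channels, against 12.20 and 12.39 in WT. Atg7 cKO lay above, and DKO below, all WT channels of the 6 experiments. The log2 ratio rose by 0.52 ± 0.17 in Atg7 cKO livers (SD, n = 2; adjusted p = 0.00751) and fell by 0.82 ± 0.13 in DKO livers (adjusted p = 0.00223). In Nrf2 KO livers it was -0.25 and -0.39, with a mean of -0.32 ± 0.09 that was not called (unadjusted p = 0.0114).

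The mitochondrial enzymes for acetaldehyde went opposite ways in Atg7 cKO livers. Aldh2, which clears acetaldehyde from alcohol and the lipid aldehyde 4-hydroxynonenal, had a log2 signal of 11.96 and 11.70 in Atg7 cKO livers, against 12.62 and 12.70 in WT. Aldh1b1, which has the same compartment and overlapping substrates, had 10.97 and 10.77, against 10.12 and 10.42 in WT. Aldh2 fell by 0.83 ± 0.24 (adjusted p = 0.00738) and Aldh1b1 rose by 0.60 ± 0.35 (adjusted p = 0.0248). Leaving out an experiment leaves its comparison with 1, so that its own spread no longer enters the fit and is assumed to be like that of the other comparisons. Without experiment 2 the Aldh1b1 ratio was 0.35 and was not called (adjusted p = 0.137), nor was it with slide as a block (adjusted p = 0.0679), and without experiment 5 the Aldh2 ratio was -0.66 and was not called (adjusted p = 0.0656). In DKO livers Aldh2 had 11.56 and 11.86, against 12.64 and 12.60 in WT, and fell by 0.91 ± 0.25 (adjusted p = 0.00574), a call lost without experiment 3 (adjusted p = 0.0539). Aldh1b1 was the only member above 0 in both DKO experiments, at 0.35 and 0.52, and its mean of 0.43 ± 0.13 was not called (adjusted p = 0.0649), though it was with median centring (0.67, adjusted p = 0.0148) and without experiment 2 or 5 (adjusted p = 0.0324).

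A second, dimmer Aldh2 probe, matched to another transcript in the scanner files, gave mean ratios of -0.56 in Atg7 cKO and of -1.02 in DKO livers, both called against WT. These are from the scanner files. In the value table the second probe gave -0.73 and -1.20 in Atg7 cKO and -2.32 and -1.71 in DKO livers, against -0.60 and -0.99, and -1.01 and -0.71, for the first. In the direct comparison, for which that table is the source, the second gave -1.58 and -0.54 in experiments 7 and 8, and the first -0.41 and 0.17. Neither was called there (adjusted p = 0.0548 for the second, in a fit of each probe by itself).

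Aldh3a2 encodes the fatty aldehyde dehydrogenase of the endoplasmic reticulum, the enzyme lost in human Sjögren-Larsson syndrome. Its log2 signal was 9.31 and 9.98 in DKO livers, against 10.11 and 11.19 in WT, and the ratio fell by 1.01 ± 0.30 (adjusted p = 0.0448). This call was lost on leaving out experiment 3 or 6, at -1.22 and -0.79 (adjusted p = 0.128 and 0.27), on leaving out either Nrf2 KO experiment (adjusted p = 0.0823), with median centring (adjusted p = 0.146) and without a filter on dim probes (adjusted p = 0.0744). In Atg7 cKO livers the ratios were 1.01 in experiment 2 and -0.16 in experiment 5, so that the SD of 0.82 exceeded the mean of 0.42, which was not called (adjusted p = 0.291). Without experiment 5 the ratio of 1.01 was called as higher (adjusted p = 0.039), as was 0.43 with slide as a block (adjusted p = 0.0296). The Atg7 cKO channels were alike, at 11.07 and 10.99, while the WT channels of the same experiments had 10.06 and 11.15.

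That gap in WT ran through all 6 experiments. The WT log2 signal of Aldh3a2 lay between 10.06 and 10.13 in experiments 1 to 3 and between 11.08 and 11.19 in experiments 4 to 6, a difference of -1.04. The same order was seen for Aldh1b1, with 10.004 to 10.19 and 10.42 to 10.62, and for Aldh9a1, with 9.43 to 9.58 and 9.80 to 9.90. For the other 7 members the ranges of both sets overlapped. The labels do not say whether the WT channels of a set held different RNA samples, so the spread within a set may be technical. These are the sets that differed in Xist and Ddx3y, and other differences between them cannot be told apart from that one. With the set as a block in the fit, Aldh3a2 stayed called in DKO (adjusted p = 0.00734) and not called in Atg7 cKO livers (adjusted p = 0.0785).

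**Figure D2:**
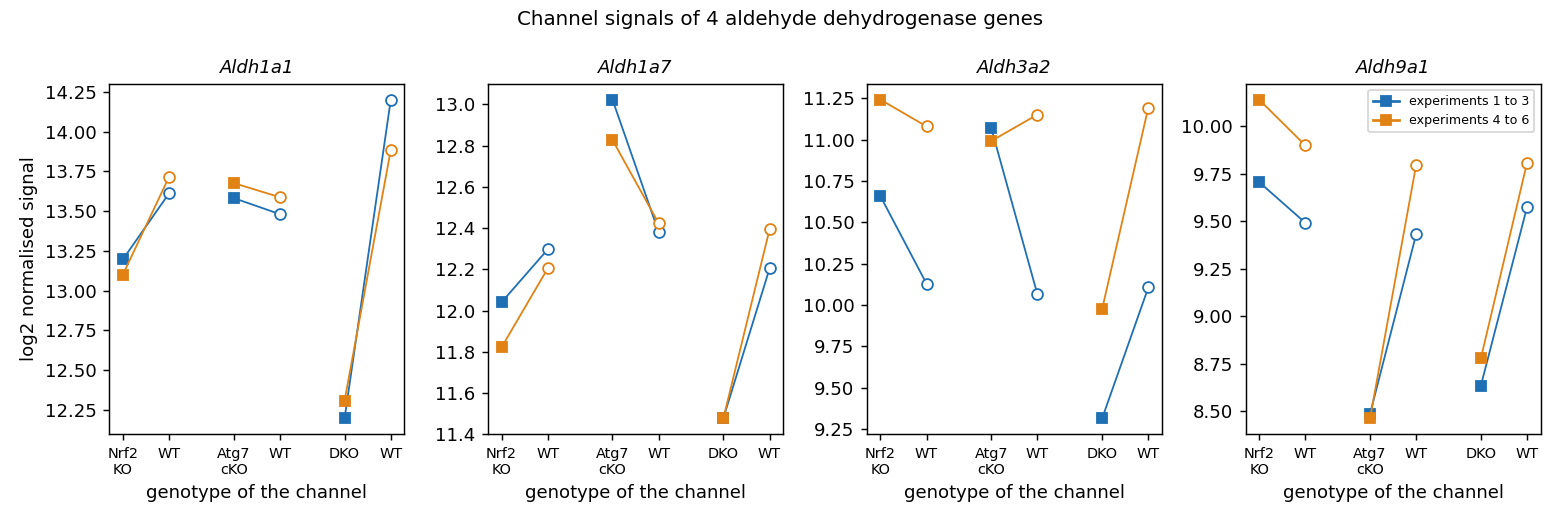
Log2 normalised signal (y axes, which do not start at 0 and differ between panels) of 4 genes in the knockout channel (filled squares) and the WT channel (open circles) of each experiment, joined by lines and grouped by comparison. Aldh1a1 is lowest in the DKO channels, at 12.20 and 12.31, with the Nrf2 KO channels next at 13.20 and 13.10, and the WT circles of Aldh3a2 lie between 10.06 and 10.13 in experiments 1 to 3 and between 11.08 and 11.19 in experiments 4 to 6.

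**Figure D3:**
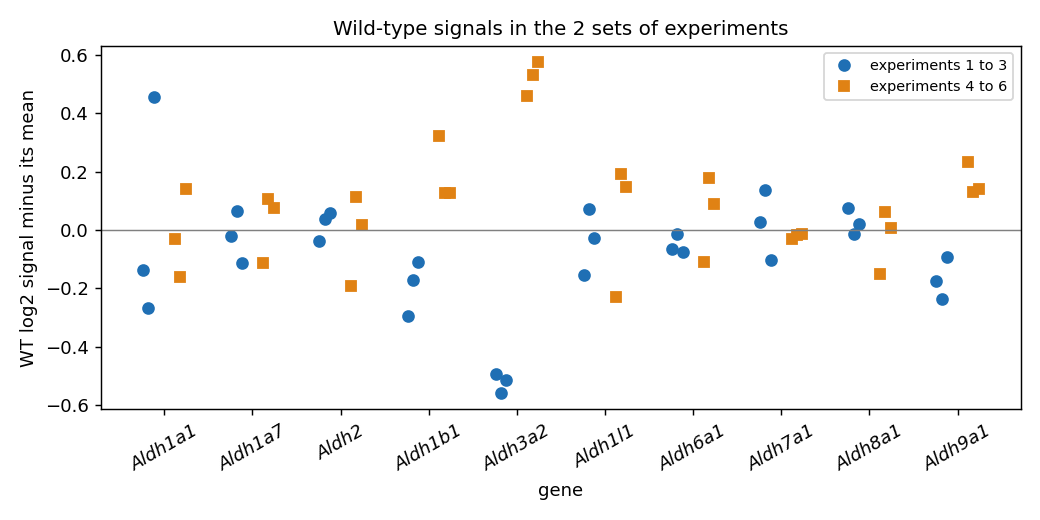
WT log2 signal of each gene minus its mean over the 6 experiments (y axis), with experiments 1 to 3 as circles and 4 to 6 as squares. The sets do not overlap for Aldh1b1, Aldh3a2 and Aldh9a1.

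The members of amino acid, choline and folate pathways were lower than WT in both Atg7-deficient genotypes. Aldh9a1, which oxidises the aldehyde precursor of carnitine, had a log2 signal of 8.49 and 8.46 in Atg7 cKO livers, against 9.43 and 9.80 in WT, and of 8.64 and 8.78 in DKO livers, against 9.58 and 9.81 in WT. No channel of these genotypes overlapped WT. It fell by 1.14 ± 0.27 in Atg7 cKO (adjusted p = 0.00148) and by 0.98 ± 0.06 in DKO livers (adjusted p = 0.00206). Its ratios in Nrf2 KO livers were 0.21 and 0.24 and were not called. A second Aldh9a1 probe gave -0.92 and -1.13 in Atg7 cKO and -0.96 and -0.94 in DKO livers.

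Aldh8a1 oxidises an aldehyde of the kynurenine pathway of tryptophan breakdown in humans and was earlier described as a retinaldehyde dehydrogenase. It had 10.50 and 10.46 in Atg7 cKO livers, against 11.39 and 11.47 in WT, and 10.30 and 10.63 in DKO livers, against 11.43 and 11.41 in WT. The falls were 0.95 ± 0.08 in Atg7 cKO (adjusted p = 0.00188) and 0.96 ± 0.24 in DKO livers (adjusted p = 0.00183). In Nrf2 KO livers its ratio was 0.07 ± 0.06 (95% interval -0.16 to 0.30).

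Aldh6a1, the methylmalonate semialdehyde dehydrogenase of valine and pyrimidine breakdown, had 11.28 and 10.85 in Atg7 cKO livers, against 12.07 and 12.27 in WT, and 10.68 and 10.99 in DKO livers, against 12.01 and 12.18 in WT. The falls were 1.11 ± 0.44 (adjusted p = 0.0071) and 1.26 ± 0.10 (adjusted p = 0.00495). In Atg7 cKO livers the call was lost with median centring in place of loess (-0.69, adjusted p = 0.0714), and in DKO livers it was lost without experiment 3 (adjusted p = 0.0522).

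Aldh1l1 is a cytosolic folate enzyme, 10-formyltetrahydrofolate dehydrogenase, whose expression in liver is high. It had 12.86 and 12.33 in Atg7 cKO livers, against 13.60 and 13.72 in WT, and 12.05 and 12.30 in DKO livers, against 13.50 and 13.68 in WT. It fell by 1.07 ± 0.46 in Atg7 cKO (adjusted p = 0.00705) and by 1.41 ± 0.05 in DKO livers (adjusted p = 0.00333). In Nrf2 KO livers both ratios were below 0, at -0.64 and -0.30, and were not called.

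Aldh7a1, or antiquitin, oxidises the semialdehyde of lysine breakdown and betaine aldehyde from choline. Its probe was dim, with a log2 signal of 7.71 and 7.27 in Atg7 cKO livers, against 8.08 and 7.92 in WT, and of 6.82 and 7.01 in DKO livers, against 7.84 and 7.93 in WT. It fell by 0.51 ± 0.20 in Atg7 cKO (adjusted p = 0.00772) and by 0.97 ± 0.07 in DKO livers (adjusted p = 0.00137). The size of these falls depended on the background correction, which here added an offset of 50 units to each signal: with the scanner's processed signals and no offset the ratios were -0.78 in Atg7 cKO and -1.65 in DKO livers, both called, and with the mean of both probes the DKO ratio was -0.60. With median centring the Atg7 cKO ratio was -0.10 and was not called (adjusted p = 0.429). A second, still dimmer Aldh7a1 probe, well above background in 19 of 24 channels, gave means of -0.20 in Atg7 cKO and -0.22 in DKO livers (adjusted p = 0.0328 and 0.0267 in a fit of each probe by itself). In the value table, which has no such offset, that probe was at -0.96 and -1.75 in Atg7 cKO and at -1.92 and -1.51 in DKO livers.

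Read as counts, 6 of 10 members were lower in Atg7 cKO livers, where 16.2% of all tested genes were called lower, and 2 were higher, where 23.2% of all were called higher. The median ratio of the members was -0.67, beside 0.00 over all genes. In DKO livers 9 were lower, where 15.9% of all genes were, and 0 were higher, where 21.2% were, with a median of -0.98 beside 0.00. Without experiment 3 there were 6 lower members in DKO. With median centring in place of loess the members' ratios in Atg7 cKO livers were shifted upwards, so that 2 were called higher and 4 lower: Aldh1a7 at 0.90, Aldh1b1 at 1.03, Aldh1l1 at -0.69, Aldh2 at -0.43, Aldh8a1 at -0.52 and Aldh9a1 at -0.68. In Nrf2 KO livers 0 members were called by limma, where 0.012% of all genes were called in either direction, and the members' median was -0.10. At an unadjusted p under 0.05, 4 members (Aldh1a1, Aldh1a7, Aldh1l1 and Aldh7a1) were lower in Nrf2 KO livers and none higher, and 616 of 16672 genes passed that limit in either direction.

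Of 7 hepatocyte markers 6 were called lower in Atg7 cKO and 5 in DKO livers relative to WT, with medians of -1.41 and -0.95. The members' medians there were -0.67 and -0.98. With DKO set directly against Atg7 cKO livers, 1 of the 7 markers was called higher and none lower. Of all genes 6.72% and 8.07% were. The markers' median there was 0.48, beside -0.35 for the members. Relative to WT all 8 tested macrophage markers were called higher, by 0.95 to 3.34 in Atg7 cKO and 0.95 to 4.43 in DKO. Of 8 stellate cell markers 5 were called higher in each. Of the other marker lists, cholangiocyte and progenitor genes were called higher in 3 of 6 and 2 of 6, sinusoidal endothelial genes in 2 of 6 and 1 of 6 (with 3 lower in DKO), lymphocyte genes in 1 of 5 and 2 of 5, and neutrophil genes in 2 of 3 in each. Of all tested genes 23.2% were called higher and 16.2% lower in Atg7 cKO, and 21.2% and 15.9% in DKO livers. Some counts in these short lists, such as 1 of 5 lymphocyte genes in Atg7 cKO livers, were near these shares. In whole liver, fewer hepatocytes and less RNA per hepatocyte cannot be told apart, and the part of cell composition in the members' falls was not tested.

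The direct comparison asks how livers without Nrf2 differed from livers with Nrf2 when Atg7 was deleted in both, on arrays that carried both genotypes. Its ratios come from the deposited value table. The called members were lower in DKO livers in both experiments. Aldh1a1 was at -2.15 and -1.87 in experiments 7 and 8, a fall of 2.01 ± 0.20 (SD, n = 2; adjusted p = 0.00151), which is 4.03 times lower in DKO than in Atg7 cKO livers. Aldh1a7 was at -1.38 in both experiments (adjusted p = 0.00261), which is 2.60 times lower. Aldh3a2 was at -1.88 and -1.11, a mean of -1.497 ± 0.544 (adjusted p = 0.0324), and Aldh7a1 at -1.15 and -0.49, a fall of 0.82 ± 0.47 (adjusted p = 0.0473). In this comparison 8.07% of all genes were called lower and 6.72% higher.

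The calls of Aldh3a2 and Aldh7a1 were close to the threshold. Aldh3a2 lost its call (adjusted p up to 0.257) on leaving out any one of experiments 1, 3, 4, 6, 7 and 8, and Aldh7a1 (adjusted p up to 0.346) on leaving out any one of the 8 experiments. Both calls were lost without a filter on dim probes (adjusted p = 0.0874 and 0.105), and that of Aldh7a1 with the mean of its probes (adjusted p = 0.0786). Aldh1a1 and Aldh1a7 kept theirs in each of these, and lost it only when experiments 7 and 8 were fitted alone (adjusted p = 0.0603 and 0.0719).

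For the other 6 members the direct ratio was not called, and the intervals, from limma's moderated standard errors, give the range of differences the arrays leave possible. Aldh9a1 was at 0.16 (95% interval -0.17 to 0.49), Aldh8a1 at -0.02 (-0.36 to 0.33) and Aldh2 at -0.12 (-0.56 to 0.33). Aldh1b1 was at -0.14 (-0.65 to 0.37), Aldh6a1 at -0.24 (-0.85 to 0.38) and Aldh1l1 at -0.45 (-0.996 to 0.088). Experiments 7 and 8 differed in sign for Aldh2, Aldh1b1, Aldh6a1, Aldh8a1 and Aldh9a1. In all 5 of these experiment 7 gave the lower ratio.

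The same contrast was computed without the direct arrays, as DKO over WT minus Atg7 cKO over WT from experiments 2, 3, 5 and 6. Here 2 members were called lower, where 3.22% of all genes were: Aldh1a1 at -1.89 (limma SE 0.16, adjusted p = 0.0103) and Aldh1a7 at -1.35 (SE 0.12, adjusted p = 0.0112). Aldh3a2 lay at -1.43 (SE 0.41, adjusted p = 0.123) and Aldh7a1 at -0.46 (SE 0.12, adjusted p = 0.097). The direct ratios come from the value table and these from the scanner files. Taken through WT on the value table, Aldh7a1 lay at -0.86 (adjusted p = 0.153), beside -0.82 directly. On that table Aldh1a1 and Aldh1a7 were called through WT too (adjusted p = 0.0286 and 0.0436). The direct and WT routes gave the same sign for all 10 members with the scanner files, and for 9 with the value table, the exception being Aldh8a1, at -0.02 directly and 0.032 through WT.

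**Figure D4:**
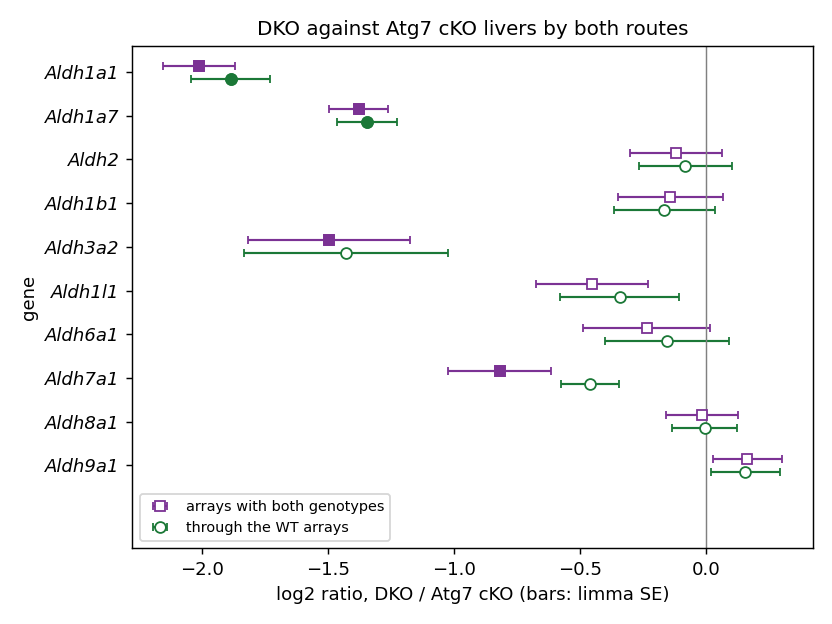
Log2 ratio of DKO over Atg7 cKO livers (x axis) for each gene, from the arrays that carried both genotypes (squares, value table) and from the WT arrays (circles, scanner files), with limma standard errors as bars and filled symbols where called. Aldh1a1 and Aldh1a7 are called by both routes, and Aldh3a2 and Aldh7a1 by the direct arrays alone.

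Whether the loss of Nrf2 had another effect with Atg7 deleted than with Atg7 intact was tested as an interaction, DKO minus Atg7 cKO minus Nrf2 KO. It was not called for any member, where 0.72% of all genes were called in either direction. Aldh1a1 was at -1.37 (SE 0.19) and Aldh1a7 at -1.03 (SE 0.14), each with an adjusted p of 0.0628, and Aldh3a2 at -1.78 (SE 0.50, adjusted p = 0.216). At an unadjusted p under 0.05 these were the 3 members that passed, and 2410 of all genes did. With a dye term on the single arrays and the experiment as a random block, limma called all 3 (adjusted p = 8.32e-04, 0.00235 and 0.00514). That fit takes both arrays of a dye swap as observations, tied by 1 correlation for all genes, and so counts technical repeats. With the set as a block Aldh1a7 alone was called (adjusted p = 0.0216). Whether the effect of Nrf2 loss is called as different between Atg7 backgrounds thus depended on the fit for these 3 genes.

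Promoter sequence from RefSeq (GRCm38.p6), 250 bases before to 50 after each start, was found for 8 of the 10 members, in 10 windows. The core of the antioxidant response element that Nrf2 binds, TGACNNNGC, was searched on both strands and occurs in 12.39% of all 32851 windows. Among the members it was found only in the window of Aldh9a1, 87 bases before the start, on chr1:167349879-167349937, plus strand. The AP-1 site TGANTCA, which shares its first 3 letters with that core, occurs in 7.81% of all windows and was found in 1 of 2 windows of Aldh1a1, 57 bases before the start, on chr19:20492501-20492557, plus strand. Both stretches are shown because these are the only matches in the family, with the match in capitals.
Aldh9a1: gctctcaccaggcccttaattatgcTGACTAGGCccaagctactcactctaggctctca
Aldh1a1: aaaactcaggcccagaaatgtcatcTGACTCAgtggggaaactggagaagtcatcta
The antioxidant core was thus found in 1 of 10 windows, beside 12.39% of all windows. Aldh2 and Aldh7a1 had no window. Whether either motif bears on the ratios was not tested. A match is a string of letters and no measured binding site, and sequence beyond these windows was not searched.

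Genes with ratios close to those of a member over the 8 experiments were found by the smallest root mean square difference of log2 ratios. For Aldh1a1 they were Pgrmc1 at 0.25, Plekhg6 at 0.26 and Cyp1a2 at 0.28. For Aldh1a7 they were an unnamed transcript, Pwp2 and Ugt2b34, the last a glucuronosyltransferase gene, at 0.12 to 0.17. Aldh1b1 ran most closely with Akap12, Armcx2 and the matrix protein gene Postn, at 0.14 to 0.16. Aldh6a1 ran with Fkbp4 and Fahd1 at 0.11 to 0.12, Aldh8a1 with Slc25a13, Ror2 and Ss18l2 at 0.07 to 0.09, and Aldh7a1 with Sord, Miga2 and Msra at 0.18 to 0.19. Within the family the closest pair was Aldh2 with Aldh8a1, at 0.21, and the farthest Aldh1a1 with Aldh1b1, at 1.48.

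Of 10 other aldehyde dehydrogenase genes 7 were tested. Aldh3b1, which acts on lipid aldehydes, was higher by 1.58 ± 0.37 in Atg7 cKO and by 1.44 ± 0.11 in DKO livers relative to WT. Aldh4a1, of proline breakdown, was lower, at -1.43 ± 0.20 in Atg7 cKO and -0.91 ± 0.25 in DKO livers. In all, 3 were higher and 2 lower in Atg7 cKO livers, and 3 higher and 3 lower in DKO livers. In the direct comparison Aldh5a1, the succinate semialdehyde dehydrogenase, was the 1 called, at -0.75 ± 0.30 (adjusted p = 0.0238). Counts in this list and those that follow stand beside the shares of all tested genes. These were 23.2% higher and 16.2% lower in Atg7 cKO, 21.2% and 15.9% in DKO, and 6.72% and 8.07% in the direct comparison. Some counts lay near these shares, and no list was tested as a set.

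Other liver enzymes clear aldehydes by reduction or with oxygen. Of 17 tested aldehyde reductases and oxidases, 8 were higher and 1 lower in Atg7 cKO livers, 5 higher and 8 lower in DKO livers, and 11 lower and 0 higher in DKO set directly against Atg7 cKO livers. The carbonyl reductase Cbr3 was at 4.99 ± 0.26 in Atg7 cKO over WT and at -5.21 ± 0.25 in DKO over Atg7 cKO. Ptgr1, which reduces lipid enals, was at 2.67 ± 0.52 and -2.52 ± 0.44 in the same comparisons, and the aldehyde oxidase Aox1 was at -3.08 ± 0.21 in the direct one. Aldh1a7 had the same signs as Cbr3 and Ptgr1 in both comparisons, at 0.52 and -1.38, and was called in both. Aldh1a1 (0.10 and -2.01), Aldh3a2 (0.42 and -1.50) and Aldh1b1 (0.60 and -0.14) had these signs too, each called in only 1 of them. The sign that was not called did not hold under every alternative. In Atg7 cKO livers Aldh1a1 was at -0.0096 with slide as a block and Aldh3a2 at -0.16 without experiment 2. The direct ratio of Aldh1b1 was 0.18 without experiment 7. Whether these genes share a cause was not tested. Of 8 Nrf2 targets taken as a check of the genotypes, 8 were higher in Atg7 cKO over WT and 7 lower in DKO over Atg7 cKO. In DKO over WT 6 were lower and 1 higher. None of the 8 was called in Nrf2 KO over WT, where their median was -0.42 and 0.012% of all genes were called.

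In the retinoid pathway, the step before Aldh1a1 is retinol oxidation. Of 14 tested alcohol and retinol dehydrogenases 6 were lower and 2 higher in Atg7 cKO, and 7 lower and 2 higher in DKO livers, among them Rdh7 at -0.72 ± 0.14 and -0.86 ± 0.09. In the direct comparison 1 was called, Rdh9, higher at 1.35 ± 0.13. Of 12 genes of retinoid transport, receptors and breakdown, 4 were lower and 2 higher in Atg7 cKO, and 2 lower and 2 higher in DKO livers. The plasma retinol carrier Rbp4 was at -1.40 ± 0.26 and -0.99 ± 0.09. Stra6 alone was called in the direct comparison, at 0.54 ± 0.22.

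For acetaldehyde and lipid peroxides, 5 genes beside Aldh2 and Aldh1b1 were tested. Cyp2e1, which makes acetaldehyde from ethanol, was at -2.95 ± 0.56 in Atg7 cKO and -1.77 ± 0.58 in DKO livers. Of the 5, 3 were higher and 1 lower in Atg7 cKO, and 4 lower in DKO livers. In the direct comparison 4 were lower, including Gsta4, which conjugates 4-hydroxynonenal, at -2.24 ± 0.11. Of 8 genes listed beside Aldh3a2 for the metabolism around fatty aldehydes, 6 were lower in each of the Atg7 cKO and DKO comparisons. None was called in the direct one. Hacl1, of peroxisomal alpha-oxidation, was at -2.17 ± 0.32 and -2.45 ± 0.18.

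In valine, leucine and isoleucine breakdown, the pathway of Aldh6a1, 11 of 19 genes were lower in Atg7 cKO and 17 of 19 in DKO livers, none was higher, and none was called in the direct comparison. Hsd17b10 was at -1.04 ± 0.18 and -1.24 ± 0.26. In lysine and choline oxidation, beside Aldh7a1, 7 of 8 genes were lower and 1 higher in Atg7 cKO and 8 of 8 lower in DKO livers. The choline dehydrogenase Chdh, which makes the aldehyde that Aldh7a1 oxidises, was the 1 called in the direct comparison, at -1.45 ± 0.34 (adjusted p = 0.00442).

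In tryptophan and kynurenine breakdown, beside Aldh8a1, 5 of 8 genes were lower in Atg7 cKO and 6 of 8 in DKO livers, with Afmid at -1.74 ± 0.23 and -1.82 ± 0.17. Ido2 alone was called in the direct comparison, at -1.17 ± 0.48. Of 4 carnitine genes beside Aldh9a1, 1 was lower in Atg7 cKO and 2 in DKO livers, among them Slc25a20, the mitochondrial carnitine carrier, at -0.32 ± 0.14 and -0.85 ± 0.10. Slc25a20 was also called in the direct comparison, at -0.82 ± 0.32. In folate metabolism, beside Aldh1l1, 6 of 14 genes were lower and 3 higher in Atg7 cKO, and 9 lower and 3 higher in DKO livers. Gnmt, which uses methyl groups from this pathway, was at -1.75 ± 0.54 and -1.87 ± 0.27, while the mitochondrial Mthfd1l was at 1.38 ± 0.01 in Atg7 cKO over WT and at -1.64 ± 0.12 in DKO over Atg7 cKO. In that direct comparison 4 folate genes were lower and 0 higher.

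**Figure D5:**
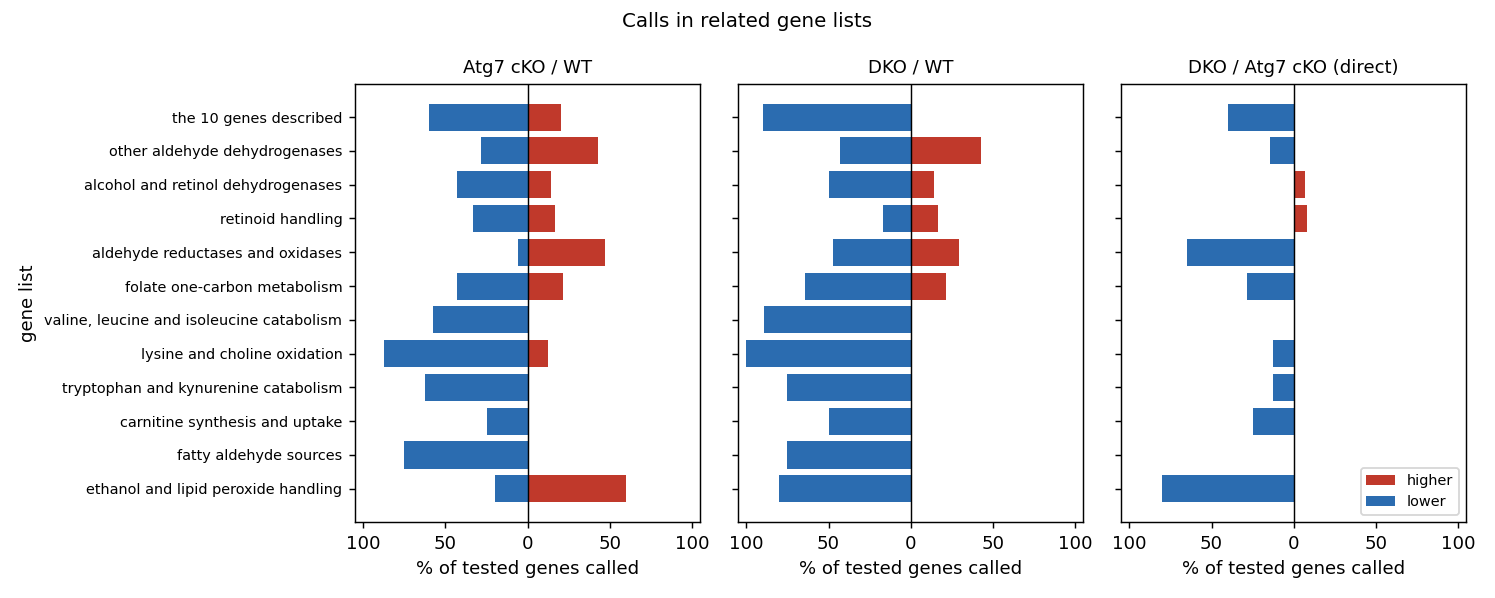
Share of tested genes called higher (right of 0) or lower (left of 0) in each list, in percent, in 3 comparisons. Bars of lists that hold few genes move in large steps, and among the 10 genes described 6 are lower in Atg7 cKO livers, 9 in DKO livers and 4 in the direct comparison. Of all tested genes 23.2% were called higher and 16.2% lower in Atg7 cKO livers, and 21.2% and 15.9% in DKO livers. The direct comparison had 6.72% and 8.07%.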

How the data were processed

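Intensities of 12 arrays (experiments 1 to 6), deposited as scanner output, were made with Feature Extraction 9.5.1.1 per the file headers (9.5.1 per the submitters' processing notes). The deposited value table holds log10 ratios of all 16 arrays, and its columns differed from the scanner files' log10 ratios by at most 0.00500. It has no stated centring, its column medians were 0, and it alone covered experiments 7 and 8. From the scanner files, background was corrected by normexp (offset 50) and ratios normalised by loess within arrays in limma 3.58.1. The value table was turned to log2. Dye swaps were averaged to 1 value per experiment. Probes well above background in at least 4 of 24 channels were kept, and the brightest stood for a gene. limma fits over all genes gave Benjamini-Hochberg adjusted p-values: 1 of experiments 1 to 6 for comparisons with WT, and 1 of all 8 on the value table for the direct comparison. Genes were named through RefSeq where an accession matched (24844 probes). All members were named, and of other lists at most 4 called genes per comparison by size of change, with up to 3 genes nearest to a member; some genes that this rule names are not reported here. Members and lists were chosen with earlier results of these data known. The fits were tested on simulated data. Alternatives covered background, normalisation, filters, probe choice, slide, set, dye and each experiment left out. The number of arrays limits precision.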

Additional observations from a re-analysis of the deposited data

Results flagged for a closer look

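Aldh6a1 was marked because every array of experiment 1 gave a Nrf2 KO over WT ratio above 0 and every array of experiment 4 one below 0. Its mean log2 ratio was 0.21 in experiment 1 and -0.22 in experiment 4. These experiments belong to the sets that differ in Xist and Ddx3y, and the difference between them was not tested.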

How the results depend on the processing

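The count of called members stayed within 1.5 times its value under every alternative run in Nrf2 KO (0 throughout), Atg7 cKO (6 to 8) and DKO livers (6 to 10) relative to WT. The interaction gave 1 called member with the set as a block and 0 without a set or dye term. It gave 3 with a dye term on single arrays and experiment as a random block, counting both arrays of a dye swap. The direct comparison gave 4 members, but 2 without a filter on dim probes, 2 through WT from the scanner files, 2 through WT from the value table, 0 from experiments 7 and 8 alone, and 2 to 3 with 1 experiment left out. Over all genes its calls then numbered 307 to 1863, against 2466, and 107 from experiments 7 and 8 alone. The interaction called 0 to 1207 genes across the alternatives, against 120, and DKO 2851 without experiment 3, against 6189. Atg7 cKO called 3209 without experiment 5, against 6567, and Nrf2 KO 0 to 91, against 2.

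Of 800 single-gene values under an alternative, 725 kept direction and side of the threshold, 38 lost their call, 11 gained one and 26 changed sign. None of the 26 was called on either side. With median centring, Aldh6a1 was at 0.14 in Nrf2 KO, and the interactions of Aldh1l1 and Aldh2 were at -0.29 and -0.28. With slide as a block, Aldh1a1 was at -0.0096 in Atg7 cKO, and the interactions of Aldh6a1 and Aldh9a1 at 0.20 and 0.049. With the mean of all kept probes, those of Aldh2 and Aldh9a1 were at -0.082 and 0.0034. Through WT in the value table, Aldh8a1 was at 0.032. The cause was not tested.

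With 1 experiment left out, which leaves its comparison 1 experiment that is assumed to vary like the others, the members that changed sign ranged as follows. In Nrf2 KO, Aldh1b1 lay between -0.051 and 0.27 and Aldh6a1 between -0.22 and 0.21. In Atg7 cKO, Aldh3a2 lay between -0.16 and 1.01. The interaction lay between -0.20 and 0.45 for Aldh1l1, -0.068 and 0.28 for Aldh2, -0.46 and 0.15 for Aldh6a1, -0.27 and 0.12 for Aldh9a1, and -0.25 and 0.092 for Aldh8a1. The direct ratio lay between -0.47 and 0.18 for Aldh1b1, -0.41 and 0.17 for Aldh2, -0.65 and 0.18 for Aldh6a1, -0.23 and 0.19 for Aldh8a1, and -0.014 and 0.34 for Aldh9a1. No paired analysis was possible because the labels number experiments, and no number is shared between comparisons. Set and slide, which come from the data and the file headers, were the blocks used in its place.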
